A study of Ovis aries with 6 samples.

Results

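Solute carriers are membrane proteins that move amino acids, sugars, ions, metals, nucleosides and metabolites across the plasma membrane and the membranes of organelles. Their genes were examined in the ovary of Hu sheep and Mongolian sheep. The members are the genes whose symbol is SLC, a family number, the letter A and a member number, and whose level was 0.5 FPKM or more in 3 or more of the 6 libraries. FPKM scales fragments by transcript length and library total, so levels of different genes in a library can be set beside each other. Of 14480 deposited gene rows, 157 carried such a symbol, and 83 of them passed the filter. The level of a member, without regard to breed, therefore chose it, and levels below are a description. Symbols with another letter, as in the nucleotide sugar families beyond SLC35A, and the SLCO genes were not taken.

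Ovary of Hu sheep during estrus (3 libraries), a breed known for large litters, was compared with ovary of Mongolian sheep during estrus (3 libraries), which usually bear a single lamb. All libraries were made from polyadenylated RNA with a SMARTer kit, which amplifies the copied RNA by PCR. No treatment, age or allele is given for either breed, and the labels do not say whether replicates were separate animals, so p-values measure only the spread between these libraries. The series title names exosomes whereas every sample is labelled ovary, and the values are described here as ovary values.

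In mammals most solute carriers work as passive facilitators, exchangers or cotransporters driven by the gradients of sodium, protons or chloride. Carriers of the SLC25 family sit mainly in the inner mitochondrial membrane and link the matrix to the cytosol, bringing in phosphate and ADP and letting out ATP. In the ovary, follicle cells take up glucose and amino acids and pass metabolites to the oocyte through gap junctions, and zinc import is needed for oocyte maturation, as shown in mice.

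The libraries differed in how much they listed, and solute carriers were more often at 0 than genes at large in every library but Hu 3. Values above 0 were given for 6500, 7971 and 13342 genes in Hu 1, Hu 2 and Hu 3, against 10547, 11463 and 10606 in Mongolian 1, 2 and 3; this order of replicates is kept throughout. The 2 most abundant gene rows held 74.3, 76.5 and 53.3% of the summed FPKM in Hu, and 75.1, 74.2 and 79.7% in Mongolian. Levels and sums compared between libraries therefore carry this difference in make-up. Of the 83 solute carriers, 48, 24 and 0 were listed at 0 in Hu, and 10, 5 and 11 in Mongolian. In Hu 1 that was 57.8% of the solute carriers, against 39.0% of all 9971 genes that passed the same filter, and in Hu 2 28.9% against 25.9%. Only 25 of the 83 were above 0 in all 6 libraries (30.1%, against 49.8% of all genes tested), and 23 were at 0 in Hu 1 alone. Read counts were not used here, so depth is unknown and a value of 0 is described only as listed at 0; for members with such a value each library is given in place of a breed mean.

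**Figure D1:**
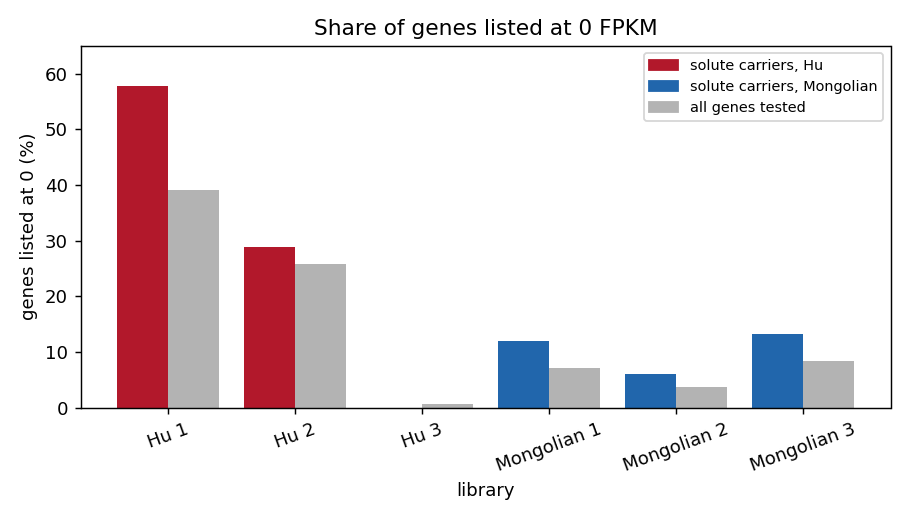
Share of genes listed at 0 FPKM (y axis, %) in each library (x axis) for the 83 solute carriers (coloured bars, Hu red and Mongolian blue) and all 9971 genes tested (grey bars). Hu 1 stands highest, at 57.8% of solute carriers and 39.0% of all genes, and Hu 3 has no solute carrier at 0.

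Marker genes of stroma were high in all libraries, and those of the oocyte were at or near 0. Summed stromal markers, such as collagen and decorin genes (7 of 9 listed), ranged from 951 to 1146 FPKM in Hu and from 878 to 980 in Mongolian libraries. The granulosa list, 5 of 9 listed, summed to between 28.4 and 183 in Hu and between 50.2 and 70.4 in Mongolian. Of 7 oocyte markers only GDF9 and ZP3 were listed, and their sum reached 0.324 in Hu and 0.888 in Mongolian at most. Of 7 red cell markers only AHSP was listed by symbol, above 0 in Mongolian 3 alone. In such bulk tissue fewer cells of a type and less RNA per cell cannot be told apart.

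Solute carriers were low transcripts. Their mean over the 6 libraries had a median of 1.79 FPKM, against 3.39 for all genes tested, and 3 of 83 (3.61%, against 18.0% of all genes) averaged at least 10 FPKM. The phosphate carrier gene SLC25A3 was highest, at a mean of 28.7 FPKM, followed by SLC25A30, a mitochondrial carrier first described in kidney, at 13.7, and SLC25A4, an ADP/ATP carrier of heart and muscle mitochondria, at 10.46. The iron exporter gene SLC40A1 came next at 8.51 and SLC25A11, which exchanges oxoglutarate for malate, at 8.12. By class, the 19 mitochondrial carriers held 40.1% of the summed mean level of all 83, the 19 amino acid and peptide carriers 18.9%, the 16 ion and pH carriers 16.4% and the 12 metal carriers 14.6%. The classes follow the substrate of each SLC family, and SLC25A17, which sits in peroxisomes, is counted with its family, as is SLC43A3, a purine carrier in humans, with the amino acid carriers.

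At the edge of the filter, the third highest of 6 values was 0.529 FPKM for SLC25A20, 0.543 for SLC10A7 and 0.574 for SLC66A1, just inside. It was 0.496 for SLC12A9, 0.475 for SLC37A4 and 0.422 for SLC23A2, just outside. SLC66A1 and SLC9A5 passed through the Mongolian libraries alone, being under 0.5 FPKM in every Hu library, so their difference follows in part from the filter.

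**Figure D2:**
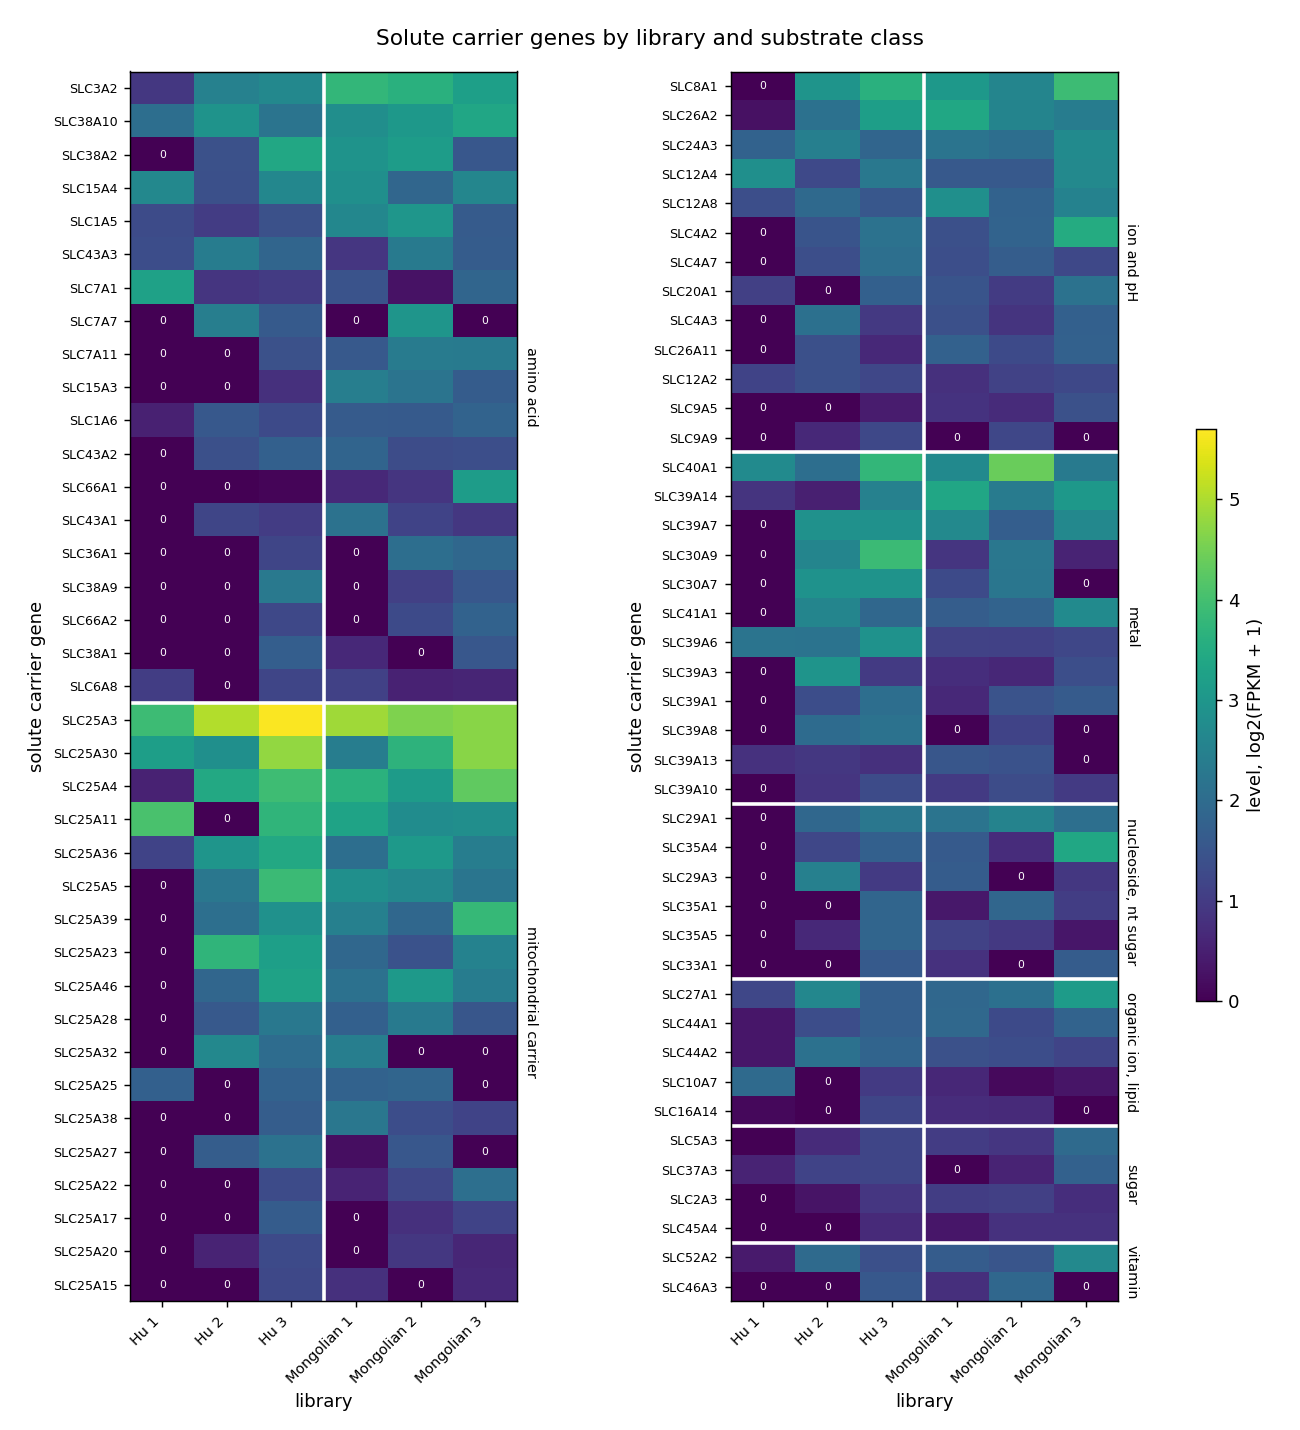
Level of 79 solute carriers, as log2(FPKM + 1) on the colour scale, in the 3 Hu and the 3 Mongolian libraries (columns), grouped by substrate class and ordered by mean level within it; a printed 0 marks a value listed at 0. The Hu 1 column holds the most zeros, Hu 3 holds 0, and SLC25A3 is the brightest row.

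Genes were compared between breeds with limma on log2(FPKM + 1) over all 9971 genes that passed the filter, and a call needs a Benjamini-Hochberg adjusted p under 0.05. No solute carrier was called: 0 of 83 passed, as did 0 of all genes tested (0.0%), and the lowest limma adjusted p of a member was 0.998. At an unadjusted p under 0.05 there were 5 members, all lower in Hu (6.02% of members), against 372 of all genes (3.73%), of which 281 were lower (2.82%) and 91 higher (0.913%). SLC66A1 is among these 5, and it passed the filter through the Mongolian libraries alone, so its side was fixed by the filter. Genes that passed in that way made up 2.41% of members and 0.672% of all genes tested. The 95% interval of a member's log2 difference reached a median of 1.51 to either side. With limma array weights, which put most of the Hu weight on Hu 2, 4 members and 633 genes were called.

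In the main setting the side on which the members lay followed all genes. Of the other scalings, quantile normalization alone moved both medians to near 0. The log2 difference, Hu minus Mongolian, was below 0 in 57 of 83 members (68.7%) and in 67.7% of all genes tested (percent higher 32.3), with a median of -0.37 for members and -0.28 for all genes. After quantile normalization 42 of 83 members were higher in Hu and the medians were 0.01 and 0.02. After median-of-ratios scaling 25 members were higher, with medians of -0.38 and -0.23. With a common sum per library that left out the 2 most abundant rows 21 members were higher, with medians of -0.50 and -0.37. Among rows above 0 in all 6 libraries 9 of 25 members were higher, and the medians lay further apart, at -0.52 and -0.11. Without Hu 1, 38 members were higher and the medians were -0.12 and 0.01. The same library left out, an unadjusted p under 0.05 was reached by 4 members higher in Hu (4.82%, against 3.03% of all genes) and by 1 lower in Hu (1.20%, against 1.64%).

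All 3 Hu values lay below all 3 Mongolian values in 8 members (9.64%, against 6.05% of all genes tested), and above them in 1 member (1.20%, against 1.88%). The 8 include SLC66A1 and SLC9A5, which passed the filter through the Mongolian libraries alone and so had to lie below; among genes of at least 0.5 FPKM in a library of each breed the count was 6 of 81 members (7.41%, against 5.42% of all such genes). Of the 8, 6 carry amino acids or peptides, as do 19 of all 83 members. Hu 1 and Hu 2 were both at 0 in 4 of the 8, and 3 of the 8 were above 0 in every library.

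**Figure D3:**
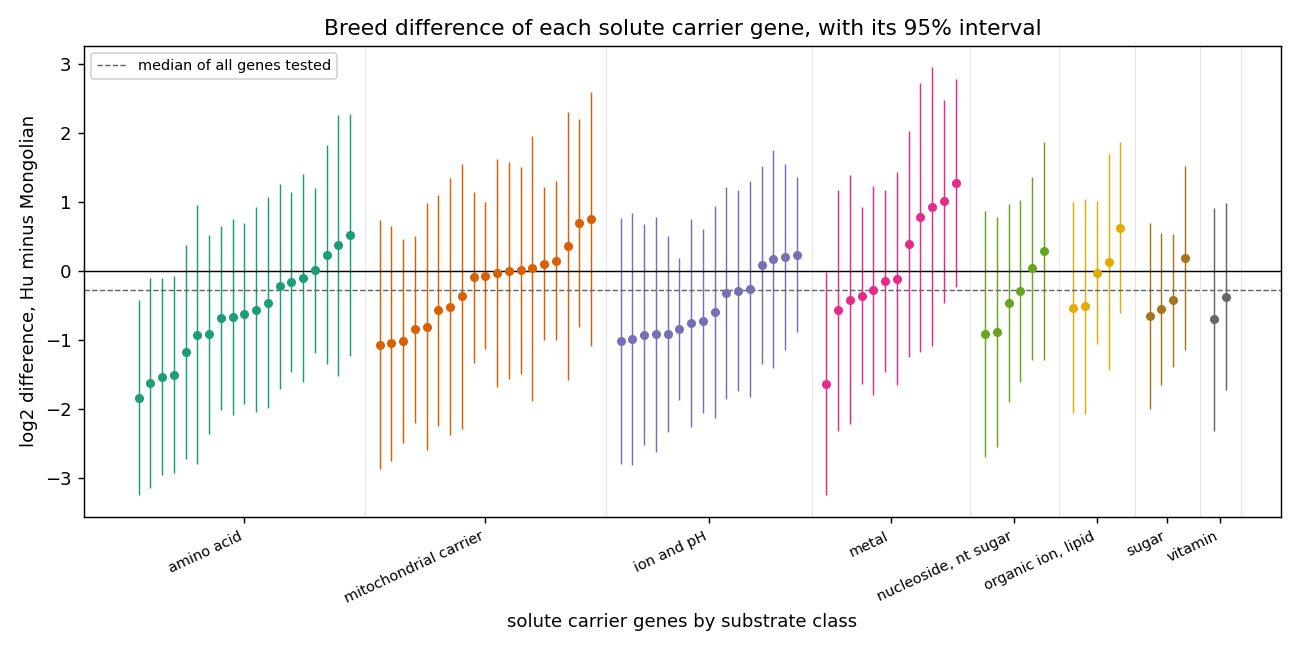
Log2 difference of each solute carrier, Hu minus Mongolian (y axis), as points with 95% intervals, by substrate class (x axis); the dashed line is the median of all genes tested, -0.28. Most points lie below 0 in the amino acid and ion classes, and 0 of 83 passed the adjusted threshold.

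Amino acid and peptide carriers held 6 of the 8 members with every Hu value below every Mongolian value, or 5 when SLC66A1, which the filter kept for its Mongolian values alone, is set aside. Among those of at least 0.5 FPKM in a library of each breed this was 5 of 18 (27.8%). For all such genes tested it was 5.42%. Their summed level was 22.4, 30.1 and 48.6 FPKM in Hu ovaries, against 56.2, 66.8 and 60.1 in Mongolian ovaries, without overlap. This sum, and the counts and medians of the class below, include SLC66A1, which held 7.83 FPKM of the sum in Mongolian 3. SLC3A2 held 0.897, 4.70 and 5.32 FPKM of the Hu sums and 12.7, 11.4 and 8.25 of the Mongolian sums. The separation of the sums therefore rests in part on these genes. Of the 19 members 15 had a log2 difference below 0, as did 67.7% of all genes tested. Their median was -0.62, against -0.28 for all genes. After quantile normalization 11 of 19 were below 0 and the median was -0.15. Without each library in turn the median remained negative, between -0.81 and -0.31. None of the 19 passed the limma test over all genes.

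SLC3A2, the heavy chain that carries light chains of amino acid exchangers to the cell surface, stood at 0.897, 4.70 and 5.32 FPKM in Hu ovaries, against 12.7, 11.4 and 8.25 in Mongolian ovaries. Every Hu library was below every Mongolian library, with means of 3.64 ± 2.40 FPKM (Hu) and 10.8 ± 2.26 FPKM (Mongolian; SD, n = 3 for each breed). The log2 difference was -1.50 (standard error 0.67, 95% interval from -2.93 to -0.08, limma adjusted p = 0.998), and it was -0.95 without Hu 1. SLC7A11, the light chain that exchanges cystine for glutamate and pairs with SLC3A2, stood at 0, 0 and 1.68 FPKM in Hu ovaries, against 2.02, 4.20 and 3.99 in Mongolian ovaries. Its groups did not overlap either, and its log2 difference was -1.62 (standard error 0.71). SLC7A7, another partner of SLC3A2, which exchanges cationic for neutral amino acids, stood at 0, 4.45 and 2.07 FPKM in Hu ovaries, against 0, 6.82 and 0 in Mongolian ovaries, so the groups overlapped. SLC7A5, the best known partner, was not listed by symbol, and SLC7A6 and SLC7A8 were under the filter.

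Carriers of glutamine and of other neutral, acidic or cationic amino acids gave a mixed picture. SLC1A5, the sodium-coupled glutamine exchanger, stood at 1.46, 1.02 and 1.66 FPKM in Hu ovaries, against 5.19, 6.998 and 2.10 in Mongolian ovaries. The groups did not overlap, with Mongolian 3 close above the Hu values; the log2 difference was -1.18 (standard error 0.73), and it was named after its values were seen. SLC1A6, a glutamate transporter, stood at 0.439, 1.97 and 1.43 FPKM in Hu ovaries, against 2.09, 2.07 and 2.53 in Mongolian ovaries, a log2 difference of -0.56 (standard error 0.70). That difference was -0.26 without Hu 1 and 0.01 after quantile normalization. SLC38A2, a sodium-coupled transporter induced by amino acid shortage, stood at 0, 1.68 and 9.69 FPKM in Hu ovaries, against 6.66, 7.82 and 1.91 in Mongolian ovaries, with Hu 3 the highest library. SLC38A10 varied little among libraries, at 3.15, 6.56 and 3.59 FPKM in Hu ovaries, against 6.01, 7.23 and 9.31 in Mongolian ovaries, a log2 difference of -0.68 (standard error 0.63). SLC7A1, the cationic amino acid transporter, was high in Hu 1 alone, at 8.54, 0.848 and 0.998 FPKM in Hu ovaries, against 1.76, 0.208 and 2.61 in Mongolian ovaries.

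Several lysosomal carriers belong to this class. SLC15A3, which carries histidine and small peptides out of lysosomes, stood at 0, 0 and 0.718 FPKM in Hu ovaries, against 4.42, 3.60 and 2.16 in Mongolian ovaries. It had the smallest unadjusted p of any member, with a log2 difference of -1.84 and a standard error of 0.66 (95% interval from -3.25 to -0.43, limma adjusted p = 0.998). Its relative SLC15A4 stood at 5.28, 1.63 and 5.19 FPKM in Hu ovaries, against 6.20, 2.67 and 5.17 in Mongolian ovaries, with full overlap. SLC66A1, an exporter of cationic amino acids from lysosomes, stood at 0, 0 and 0.0519 FPKM in Hu ovaries, against 0.574, 0.834 and 7.83 in Mongolian ovaries, with Mongolian 3 far above the rest and a log2 difference of -1.53 (standard error 0.67) that was -0.74 without Mongolian 3. The filter kept SLC66A1 for its Mongolian values alone, which fixed the sign of this difference. SLC38A9, which senses lysosomal arginine for the mTORC1 kinase, stood at 0, 0 and 3.96 FPKM in Hu ovaries, against 0, 1.11 and 1.94 in Mongolian ovaries, and SLC36A1, a proton-coupled exporter, at 0, 0 and 1.30 in Hu ovaries, against 0, 3.19 and 2.72 in Mongolian ovaries. Both overlapped between breeds. The other members, SLC43A1, SLC43A2, SLC43A3, SLC66A2, SLC38A1 and SLC6A8, had means from 0.743 to 2.61 FPKM.

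**Figure D4:**
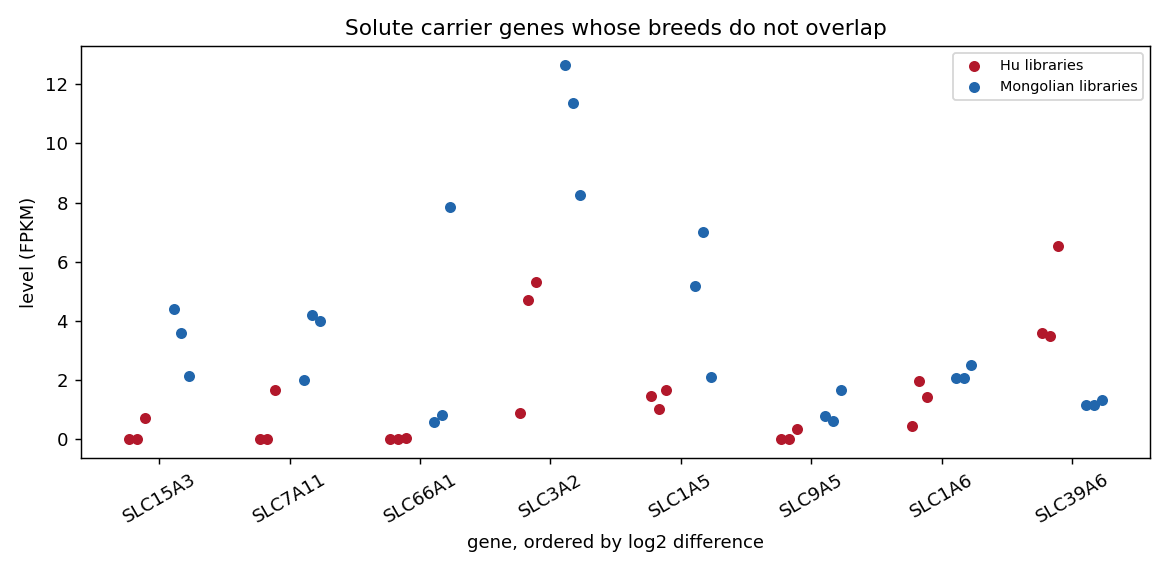
Level (y axis, FPKM) of 8 solute carriers whose 3 Hu values (red points) and 3 Mongolian values (blue points) do not overlap, ordered by log2 difference (x axis). SLC39A6 alone has the Hu values on top, from 3.48 to 6.54 FPKM, with Mongolian values from 1.16 to 1.33 FPKM. SLC66A1 and SLC9A5 passed the filter through the Mongolian libraries alone, so their groups had to be apart.

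The immune marker list, of which 7 of 9 genes were listed, had its highest sums in Mongolian 2 and Hu 2. It summed to 12.7, 36.5 and 30.6 FPKM in Hu and to 25.4, 63.2 and 21.7 in Mongolian, with the macrophage gene CD68 at 4.93, 19.3 and 7.42 in Hu ovaries, against 6.01, 29.1 and 3.57 in Mongolian ovaries. SLC7A7, highest in Mongolian 2 and next in Hu 2, had the same pair of libraries on top as CD68. PTPRC, the general leukocyte gene of the list, stood at 1.22, 0 and 1.36 FPKM in Hu ovaries, against 2.15, 3.96 and 3.87 in Mongolian ovaries. All its Hu values were below all its Mongolian values, as in SLC15A3. Of the 6 tested genes of the list, PTPRC was the only 1 so separated. PTPRC and SLC15A3 were both at 0 in Hu 2, but SLC15A3 was also at 0 in Hu 1, where PTPRC stood at 1.22 FPKM. The part of immune cells in these values was not tested.

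Mitochondrial carriers held the 3 most abundant members and differed more among the Hu libraries than between breeds. Their sum was 49.9, 86.9 and 172 FPKM in Hu, on either side of the 91.9, 88.1 and 113.5 in Mongolian. Of the 19 members 11 had a log2 difference below 0, with a median of -0.07; 8 of 19 were below 0 after quantile normalization, where the median was 0.13, and it was 0.14 without Hu 1 and -0.58 without Hu 3. None of the 19 had an unadjusted p under 0.05.

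SLC25A3, which brings phosphate into the matrix for ATP synthesis, stood at 14.0, 32.1 and 49.4 FPKM in Hu ovaries, against 28.4, 23.1 and 24.9 in Mongolian ovaries, so the Hu libraries lay on both sides of the tight Mongolian group. It averaged 31.8 ± 17.7 FPKM (Hu) and 25.5 ± 2.71 FPKM (Mongolian; SD, n = 3 for each breed), a log2 difference of 0.15 (standard error 0.54) that was -0.25 without Hu 3. The ADP/ATP carrier SLC25A4 stood at 0.469, 9.90 and 14.2 FPKM in Hu ovaries, against 11.5, 7.76 and 18.9 in Mongolian ovaries, with Hu 1 far below the rest; its log2 difference of -1.05 (standard error 0.80) was -0.01 without Hu 1. SLC25A5, the ADP/ATP carrier of dividing cells, stood at 0, 3.80 and 13.8 FPKM in Hu ovaries, against 6.12, 5.35 and 3.65 in Mongolian ovaries, a log2 difference of -0.52 (standard error 0.87) that was 0.50 without Hu 1. Over the 6 libraries SLC25A4 averaged 10.46 FPKM and SLC25A5 5.45. SLC25A6, the third of these near-identical paralogs, was not listed by symbol, and reads shared among such paralogs make their levels uncertain, since the counting is not stated.

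Other abundant mitochondrial carriers were led by different libraries. SLC25A30 stood at 8.15, 6.14 and 26.6 FPKM in Hu ovaries, against 4.34, 11.8 and 24.9 in Mongolian ovaries, with Hu 3 and Mongolian 3 standing above the other 4 libraries and a log2 difference of 0.01 (standard error 0.70) that was -0.58 without Hu 3 or without Mongolian 1. SLC25A11 stood at 15.6, 0 and 12.3 FPKM in Hu ovaries, against 8.92, 5.88 and 5.999 in Mongolian ovaries. Hu 2 alone set the sign of its log2 difference of -0.37 (standard error 0.90), which was 0.93 without that library. SLC25A36, a carrier of pyrimidine nucleotides, stood at 1.21, 6.80 and 9.82 FPKM in Hu ovaries, against 3.18, 7.34 and 4.35 in Mongolian ovaries, a log2 difference of 0.00 (95% interval from -1.57 to 1.57), below 0 without Hu 2, Hu 3, Mongolian 1 or Mongolian 3. SLC25A39, needed for mitochondrial glutathione, stood at 0, 3.25 and 6.43 FPKM in Hu ovaries, against 4.56, 2.77 and 13.0 in Mongolian ovaries, a log2 difference of -1.07 (standard error 0.85) that was -0.24 without Hu 1, -1.69 without Hu 3 and -0.53 without Mongolian 3. Each of these 4 overlapped between breeds.

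Among the scarcer SLC25 genes, SLC25A23, a calcium-sensitive ATP-Mg/phosphate carrier, stood at 0, 12.2 and 8.29 FPKM in Hu ovaries, against 2.75, 1.71 and 4.79 in Mongolian ovaries. Hu 2 and Hu 3 were above, and Hu 1 below, all Mongolian libraries. SLC25A27, a member of the uncoupling protein group, stood at 0, 2.19 and 3.45 FPKM in Hu ovaries, against 0.158, 1.90 and 0 in Mongolian ovaries, a log2 difference of 0.69 (standard error 0.71) that was 0.25 without Hu 3, 0.40 without Mongolian 3, 1.17 without Mongolian 2 and 1.33 without Hu 1. SLC25A20, which exchanges acylcarnitine for carnitine in fatty acid oxidation, stood near the filter at 0, 0.476 and 1.41 FPKM in Hu ovaries, against 0, 0.888 and 0.529 in Mongolian ovaries. Other carriers, SLC25A46, SLC25A28 (a mitochondrial iron importer), SLC25A32, SLC25A25, SLC25A38 (glycine import for heme), SLC25A22 (glutamate), SLC25A17 and SLC25A15 (ornithine), had means from 0.447 to 4.42 FPKM. All overlapped between breeds.

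Metal carriers held SLC39A6, the 1 member with each Hu value above each Mongolian value. SLC39A6, a zinc importer of the cell surface, stood at 3.60, 3.48 and 6.54 FPKM in Hu ovaries, against 1.17, 1.16 and 1.33 in Mongolian ovaries. All Hu libraries were above all Mongolian libraries, with means of 4.54 ± 1.73 FPKM (Hu) and 1.22 ± 0.0987 FPKM (Mongolian; SD, n = 3 for each breed). The log2 difference was 1.28 (standard error 0.71, 95% interval from -0.23 to 2.78), and the limma adjusted p was 0.998. Its partner SLC39A10, with which SLC39A6 acts in mouse oocytes and other cells, stood at 0, 0.851 and 1.48 FPKM in Hu ovaries, against 0.955, 1.52 and 0.967 in Mongolian ovaries, without a like separation.

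SLC39A14, an importer of zinc, manganese and free iron, stood at 0.807, 0.425 and 4.63 FPKM in Hu ovaries, against 9.37, 4.14 and 7.19 in Mongolian ovaries. Hu 1 and Hu 2 were below every Mongolian library and Hu 3 was not; the log2 difference was -1.64 (standard error 0.76). SLC39A8, a relative that carries zinc and manganese, stood at 0, 3.0 and 3.47 FPKM in Hu ovaries, against 0, 1.21 and 0 in Mongolian ovaries, a log2 difference of 1.00 (standard error 0.69) that was 0.62 without Hu 3 and 1.70 without Hu 1. SLC30A9, which exports zinc from mitochondria, stood at 0, 5.04 and 13.8 FPKM in Hu ovaries, against 0.847, 3.78 and 0.471 in Mongolian ovaries, a log2 difference of 0.93 (standard error 0.95) that was 0.06 without Hu 3, 0.59 without Mongolian 3, 1.44 without Mongolian 2 and 2.01 without Hu 1. SLC30A7, which loads zinc into the Golgi apparatus, had the same pattern at 0, 6.48 and 6.57 FPKM in Hu ovaries, against 1.42, 3.69 and 0 in Mongolian ovaries. In these 3 genes Hu 1 was at 0 while Hu 2 and Hu 3 were above all Mongolian libraries.

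SLC40A1, the only known cellular iron exporter, stood at 5.66, 3.19 and 12.7 FPKM in Hu ovaries, against 5.55, 19.9 and 4.03 in Mongolian ovaries, with means of 7.18 ± 4.93 FPKM (Hu) and 9.84 ± 8.78 FPKM (Mongolian; SD, n = 3 for each breed). Mongolian 2 and Hu 3 stood above the other libraries, and the log2 difference was -0.28 (standard error 0.71); it was 0.11 without Hu 2 and 0.34 without Mongolian 2. FTH1, the ferritin heavy chain that stores iron, was also highest in Mongolian 2, at 89.2, 409.8 and 225 FPKM in Hu ovaries, against 118, 694 and 184 in Mongolian ovaries, as was CD68. FTH1 and CD68 were next highest in Hu 2, where SLC40A1 was lowest. Their part in the level of SLC40A1 was not tested. Over the 12 metal carriers 7 log2 differences were below 0, with a median of -0.13, but 4 were below 0 after quantile normalization, where the median was 0.25, and it was 0.49 without Hu 1 and 0.16 without Mongolian 2. The other members were SLC39A7, SLC41A1 (magnesium), SLC39A3, SLC39A1 and SLC39A13, with means from 0.997 to 4.28 FPKM, and all overlapped between breeds.

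Carriers of ions and of acid and base equivalents had a log2 difference below 0 in 12 of 16 members. This was so for 67.7% of all genes tested. SLC9A5, which the filter kept for its Mongolian values alone, is among the 12. The median of the class was -0.66. After quantile normalization 10 of 16 were below 0 and the median was -0.10. Without Hu 1 the median was -0.18, and without Mongolian 3 it was -0.38. Their sum was 17.7, 33.3 and 45.3 FPKM in Hu ovaries, against 44.5, 34.1 and 71.8 in Mongolian ovaries, which overlapped. SLC8A1, the sodium-calcium exchanger of muscle and other cells, stood at 0, 6.74 and 11.4 FPKM in Hu ovaries, against 7.25, 5.06 and 13.9 in Mongolian ovaries. Hu 1 alone put its log2 difference at -0.99 (standard error 0.86), and without that library it was 0.11. SLC26A2, which supplies sulfate for proteoglycans, stood at 0.201, 3.39 and 8.16 FPKM in Hu ovaries, against 9.58, 4.96 and 4.22 in Mongolian ovaries, a log2 difference of -0.92 (standard error 0.80) that was -0.12 without Hu 1 and -1.59 without Hu 3.

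SLC9A5, a sodium-proton exchanger, stood at 0, 0 and 0.344 FPKM in Hu ovaries, against 0.790, 0.620 and 1.66 in Mongolian ovaries, a log2 difference of -0.84 (standard error 0.48). It passed the filter through the Mongolian libraries alone, so its groups could not overlap and its difference had to be negative. It was named after its values were seen. SLC4A2, an anion exchanger, was highest in Mongolian 3, at 0, 1.78 and 3.42 FPKM in Hu ovaries, against 1.61, 2.5 and 10.3 in Mongolian ovaries. SLC9A3R1, a scaffold of sodium-proton exchangers and not a carrier, was also highest in Mongolian 3, at 3.62, 2.16 and 8.72 FPKM in Hu ovaries, against 10.4, 4.73 and 28.8 in Mongolian ovaries. Markers of luteal cells, 6 of 6 listed, summed to 93.6, 14.1 and 139.6 FPKM in Hu ovaries, against 13.5, 6.12 and 377 in Mongolian ovaries, with Mongolian 3 again the highest library. OXT, the oxytocin gene, made 305 of the 377 FPKM there, while CYP11A1, PTGFR, PRLR and RGN were highest in Hu 3. Their part in these values was not tested.

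Cation-chloride cotransporters, which set cell volume and chloride, included SLC12A2 and SLC12A4, both above 0 in every library. SLC12A2, the sodium-potassium-chloride importer, stood at 1.21, 1.60 and 1.33 FPKM in Hu ovaries, against 0.741, 1.16 and 1.35 in Mongolian ovaries, with a coefficient of variation of 23.2% over the 6 libraries, against a median of 84.4% for the 83 members. SLC12A4, a potassium-chloride exporter, stood at 6.20, 1.41 and 3.87 FPKM in Hu ovaries, against 2.03, 2.03 and 5.46 in Mongolian ovaries. The calcium exchanger SLC24A3 was also above 0 in every library, with a coefficient of variation of 33.4%. Others were SLC12A8, which is counted with its family and may carry another substrate, SLC4A7, SLC4A3, SLC20A1, SLC26A11 and SLC9A9, with means from 0.540 to 3.28 FPKM.

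The remaining classes held 3.98% of the members' summed mean level or less each. All 6 carriers of nucleosides, nucleotide sugars and acetyl-CoA were listed at 0 in Hu 1, and their sum was 0, 9.235 and 14.4 FPKM in Hu ovaries, against 10.04, 9.10 and 17.04 in Mongolian ovaries. SLC29A1, the equilibrative nucleoside transporter, stood at 0, 2.74 and 3.76 FPKM in Hu ovaries, against 3.59, 4.81 and 3.22 in Mongolian ovaries. SLC35A4 stood at 0, 1.34 and 2.35 FPKM in Hu ovaries, against 2.04, 0.660 and 9.45 in Mongolian ovaries, where Mongolian 3 was the high library. SLC27A1, a fatty acid transport protein, led the class of lipids, monocarboxylates and organic ions, at 1.33, 5.21 and 2.31 FPKM in Hu ovaries, against 2.75, 3.28 and 7.73 in Mongolian ovaries. The choline carrier SLC44A1 stood at 0.272, 1.53 and 2.29 FPKM in Hu ovaries, against 2.78, 1.42 and 2.51 in Mongolian ovaries. SLC10A7 was high in Hu 1, at 2.94, 0 and 0.967 FPKM in Hu ovaries, against 0.543, 0.108 and 0.242 in Mongolian ovaries, a log2 difference of 0.62 (standard error 0.58) that was 0.13 without Hu 1 and 1.11 without Hu 2. Each of these genes overlapped between breeds.

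Sugar carriers were scarce. SLC5A3, the sodium-coupled importer of myo-inositol, stood at 0.0113, 0.617 and 1.29 FPKM in Hu ovaries, against 1.01, 0.875 and 2.91 in Mongolian ovaries. The high-affinity glucose transporter SLC2A3 stood at 0, 0.233 and 0.861 FPKM in Hu ovaries, against 1.05, 1.12 and 0.675 in Mongolian ovaries, and SLC37A3 at 0.493, 1.21 and 1.27 in Hu ovaries, against 0, 0.487 and 2.42 in Mongolian ovaries. The widely expressed glucose transporter SLC2A1 did not pass the filter, its highest Hu library being at 0.199 FPKM and its highest Mongolian library at 2.63, and neither did the lactate exporter SLC16A3, whose highest libraries were at 0.442 (Hu) and 1.28 (Mongolian). SLC16A1, SLC38A3, SLC30A1 and SLC11A2 were not listed by symbol. Of the vitamin carriers, SLC52A2, a riboflavin importer, stood at 0.322, 2.89 and 1.61 FPKM in Hu ovaries, against 2.16, 1.84 and 5.44 in Mongolian ovaries, and SLC46A3, a lysosomal carrier, at 0, 0 and 1.95 in Hu ovaries, against 0.712, 2.75 and 0 in Mongolian ovaries.

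**Figure D5:**
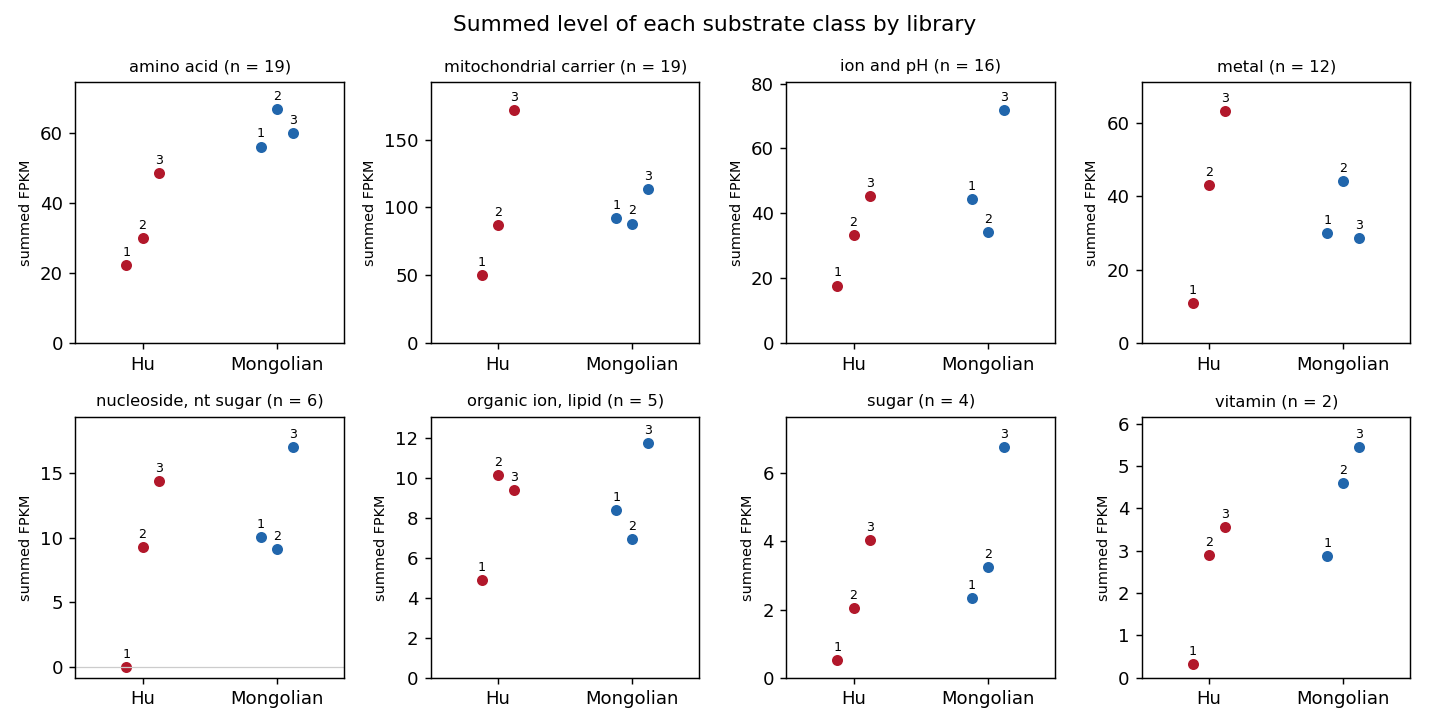
Summed FPKM (y axis) of the members of each substrate class in the Hu libraries (red) and the Mongolian libraries (blue), each point being 1 library with its replicate number. The amino acid class is without overlap, at 22.4 to 48.6 in Hu and 56.2 to 66.8 FPKM in Mongolian, and the mitochondrial class spans 49.9 to 172 in Hu. The amino acid sum includes SLC66A1, which passed the filter through the Mongolian libraries alone.

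As a set, the 83 members differed more between Hu 1 and the other Hu libraries than among the Mongolian ones. Pearson correlations of log2(FPKM + 1) were taken across the 83 genes, which share library totals and are not independent replicates. The correlations were 0.14 for Hu 1 with Hu 2, 0.33 for Hu 1 with Hu 3 and 0.62 for Hu 2 with Hu 3. Within Mongolian they were between 0.50 and 0.62. Hu 1 gave 0.44, 0.35 and 0.32 with Mongolian 1, 2 and 3. Hu 3 paired with Mongolian 2 reached 0.71, the highest of the 15 pairs. Across all genes tested the values were between 0.69 and 0.75 within Hu and between 0.74 and 0.82 within Mongolian. Hu 3 held the highest value of 26.5% of the solute carriers, against 44.99% of all genes tested, and Mongolian 3 held 27.7% against 26.6%.

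Genes that work with these carriers were examined as lists of known partners. The counts below 0 stand beside the 67.7% of all genes tested that had a log2 difference below 0. Of 9 tested genes of monocarboxylate and pyruvate handling, 0 passed the limma test and 5 had a log2 difference below 0. BSG, the chaperone of monocarboxylate carriers, stood at 13.5, 22.4 and 33.6 FPKM in Hu ovaries, against 22.2, 23.1 and 22.2 in Mongolian ovaries, and VDAC2, a pore of the outer mitochondrial membrane, at 8.89, 21.8 and 46.8 in Hu ovaries, against 18.1, 16.6 and 17.2 in Mongolian ovaries. Both had the pattern of SLC25A3, with Hu 1 lowest, Hu 3 highest and the Mongolian libraries close together. Of 8 tested genes of the amino acid and mTORC1 list, which also holds ATF4 and GPNMB, 7 were below 0 and 0 passed. LAMTOR4, a subunit of the lysosomal anchor of mTORC1, stood at 0, 0 and 13.2 FPKM in Hu ovaries, against 14.0, 11.97 and 18.3 in Mongolian ovaries, so that it was at 0 in the same libraries as SLC15A3 and SLC66A1. That pattern was common, since 10.5% of all genes tested were at 0 in Hu 1 and Hu 2 and above 0 in all 3 Mongolian libraries.

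In the metal list 0 of 7 tested genes passed and 4 were below 0. The metallothionein gene MT2A, whose product binds zinc, stood at 15.5, 7.98 and 92.1 FPKM in Hu ovaries, against 8.92, 11.4 and 78.4 in Mongolian ovaries, with one high library in each breed. Regulators of ion cotransport had 7 of 8 tested members below 0 and 0 passing, among them WNK1, the kinase upstream of the SLC12 cotransporters, at 7.62, 9.27 and 14.4 FPKM in Hu ovaries, against 12.1, 9.89 and 21.6 in Mongolian ovaries. Of 6 tested genes of glucose uptake and its first steps 5 were below 0, of 3 SLCO genes 1, and of 11 atypical carriers 5, and 0 passed in each list. The share below 0 was 67.7% of all genes tested, and with so few genes per list no shift of a list was read from these counts.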

How the data were processed

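FPKM per gene and library is the only unit used, as deposited by the authors; their aligner, counter, build and filters were not given in the sources used here. Columns were matched to samples by the codes in the sample descriptions, per the labels. Low values gave no steps of whole reads: at most 0.566% of genes under 2 FPKM shared a ratio between a pair of libraries, so counts were not modelled. Identical values above 0 were not shared by any 2 libraries. The 9971 genes of 0.5 FPKM or more in 3 or more libraries were tested on log2(FPKM + 1), which understates changes of low genes, with limma 3.58.1 in R 4.3.3 (trend, two-sided, breed as the only factor, Benjamini-Hochberg over all genes). The script was tested on simulated data.

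Members, classes and lists were chosen with earlier results of these data known. Named members are the 12 highest, the 2 highest of each class, the 5 with the smallest p in each direction, the steadiest and most variable of at least 5 FPKM, those next to the filter and 20 known carriers; others were named after their values were seen. All 83 symbols matched RefSeq names (assembly ARS-UI_Ramb_v3.0); no coordinates or sequences were used. Alternatives were other pseudocounts, filters and scalings, a replicate block, array weights, no trend and leaving out each library. Values of some members are not reported here.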

Additional observations from a re-analysis of the deposited data

How the results depend on the processing

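The number of solute carriers called was 0 in every alternative except limma array weights, which gave 4 (SLC15A3, SLC39A14, SLC7A11 and SLC25A11, all lower in Hu, adjusted p between 0.0200 and 0.0437) among 633 genes, with weights of 3.64 on Hu 2 and 0.41 and 0.25 on Hu 1 and Hu 3. Leaving out 1 library gave between 0 and 4 calls over all genes, 2 without Hu 2 and 4 without Hu 3, and 0 among solute carriers. The members' median log2 difference of -0.37 was -1.67 with a pseudocount of 0.01, against -0.79 for all genes, and 0.014 after quantile normalization. Without each library in turn the members' median lay between -0.73 and -0.12.

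Of 24 members given with a log2 difference, 14 kept their sign in all alternatives that could be computed. SLC25A36 was -0.11, -0.091 and -0.086 with pseudocounts of 0.01 and 0.1 and with a common sum per library that left out the 2 most abundant rows, and from -0.46 to 0.68 without single libraries. SLC25A30 was -0.053 with that common sum, -0.29 with array weights, and from -0.58 to 0.56 without single libraries. SLC10A7 was -0.15 with array weights, SLC30A9 -0.39 with a pseudocount of 0.01 and SLC1A6 0.014 after quantile normalization. Without single libraries SLC25A11 lay between -1.10 and 0.93, SLC25A3 between -0.25 and 0.63, SLC25A5 between -1.44 and 0.50, SLC40A1 between -0.74 and 0.34 and SLC8A1 between -1.71 and 0.11. The cause was not tested. The replicate block gave 0 calls among solute carriers and 0 among all genes; same-numbered libraries had correlations of deviations of -0.01, -0.03 and -0.18, so the numbers were not taken to pair them. With a filter at 5 FPKM 13 members could be fitted. Unknown depth limits every value near 0.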

Other observations

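The 74 rows with a solute carrier symbol that did not pass the filter were listed most often in Hu 3. Above 0 FPKM were 7, 6 and 56 of them in Hu and 24, 27 and 24 in Mongolian. Of the 32 listed in exactly 1 library, 22 were listed in Hu 3. SLC31A1, the copper importer of the cell surface, was at 5.47 FPKM in Hu 3, and SLC18A2, a vesicular monoamine transporter, at 4.90; both were listed at 0 in the other 5 libraries. They were named after their values were seen.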
